A study of Homo sapiens with 6 samples.

Results

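Genes whose RNA was higher after cGAMP in SK-OV-3 cells with a wild-type (WT) STING1 allele, and flat in cells left with the HAQ allele alone, were examined as a group of 92 members. They were chosen by the measured values themselves. CPM is a gene's estimated count divided by the sum of its library and multiplied by 1000000. A member had to average 50 counts or more in the 6 libraries, with a cGAMP to control CPM ratio of at least 2 in both WT/HAQ and WT/-. Its ratio in HAQ/- lay between 0.8 and 1.25, with counts under 3 set to 3. Of 60498 genes in the table, 12085 had the minimum mean count, and 92 of these (0.761%) are members. A few names, TIPARP among them, and symbols beginning with IFN or CXCL were left out by the rule, which removed 3 genes that met the thresholds. Because the same libraries selected the members, their levels are a description, and neither the gap between the lines nor its direction is a finding.

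SK-OV-3 is an established human ovarian cancer cell line that carries 1 WT and 1 HAQ copy of STING1, and the comparison asks what each copy does when it is the sole one left. Each of 3 genotypes was sequenced once as control and once after cGAMP, so no condition had a replicate and no difference had a replicate check. WT/HAQ cells kept both copies, WT/- cells had lost the HAQ copy and HAQ/- cells had lost the WT copy. Whole alleles were deleted with a pair of guide RNAs in lentiCRISPRv2, followed by puromycin selection and limiting dilution, so an edited line stands for 1 clone and its clone and its genotype cannot be told apart. Treated cells were permeabilised with digitonin, given 10 μg/mL cGAMP for 30 min and left in fresh medium for 4 h before harvest. How control cells were handled is not given in the sources used here. The library totals were 17608454 counts in the WT/HAQ control and 16719779 after cGAMP, 17060693 and 12444802 in WT/-, and 17022790 and 13686475 in HAQ/-. Intervals given here are exact (Clopper-Pearson) 95% intervals and cover counting error only.

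STING1 is the receptor of cGAMP, the second messenger that the DNA sensor cGAS makes when DNA appears in the cytoplasm. Once bound, it moves from the endoplasmic reticulum to the Golgi, where the kinase TBK1 activates IRF3, and it can also activate NF-kB. IRF3 and the interferons that follow switch on antiviral genes, while HAQ is a common haplotype of the gene that combines several amino acid changes.

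STING1 itself, listed under its older symbol TMEM173, was counted in every library. Its level was 42.99 CPM in the WT/HAQ control and 112 CPM after cGAMP, 22.2 and 33.3 CPM in WT/-, and 14.3 and 26.9 CPM in HAQ/-. Both lines with a single copy were below WT/HAQ, and HAQ/- was the lowest of the 3 controls. The counts do not separate the haplotypes, so they check the loss of a copy only through its level. The part that the lower STING1 level of HAQ/- has in the values below was not tested.

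HAQ/- cells did respond to cGAMP. Of the 12085 genes, 608 (5.03%) reached a ratio of at least 2 in WT/HAQ, 524 (4.34%) did so in WT/- and 207 (1.71%) in HAQ/-, while 9905 genes (82.0%) lay inside the HAQ/- window. Of the 439 genes with a ratio of at least 2 in both lines with a WT allele, 189 reached 2 in HAQ/- too, 147 lay between the window and 2, and 8 lay below the window. The HAQ/- ratios of the 439 genes ran on without a gap at both limits of the window, so the members are the low end of a range. IFIT1, an antiviral RNA-binding protein named after its values were seen, shows the other end, at 6.701 and 1745 CPM in WT/HAQ, 14.7 and 1528 CPM in WT/-, and 10.2 and 537 CPM in HAQ/-, control before cGAMP.

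Of the 174 genes whose smaller ratio of the WT/HAQ and WT/- pair lay from 2 to 3, 61 are members. Of the 83 genes whose smaller ratio was at least 10, 1 is a member. The median HAQ/- ratio of the same bands was 1.39 and 6.68. These bands use the ratios that selected the members, so they describe the set and are not a result.

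**Figure D1:**
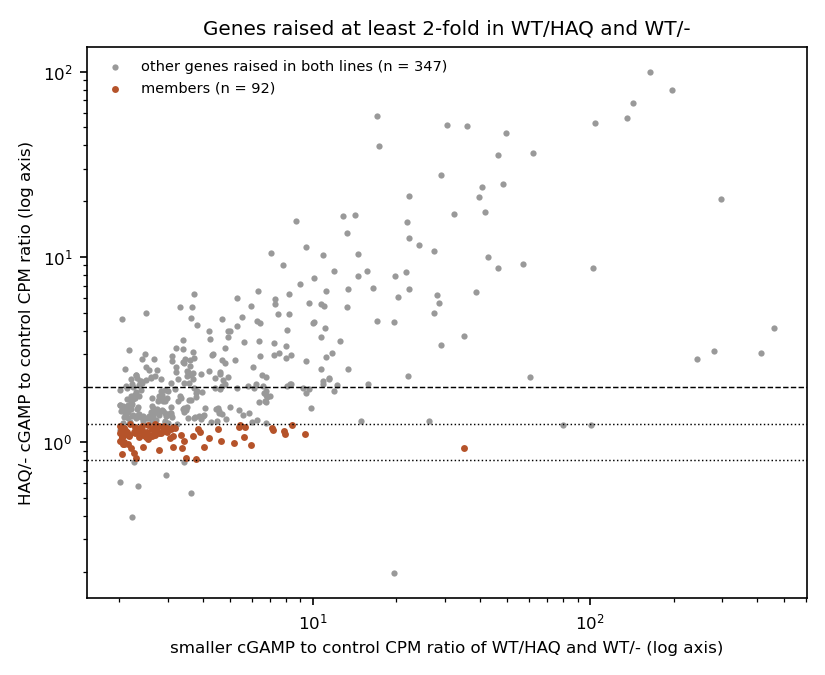
Each point is 1 of the 439 genes with a cGAMP to control CPM ratio of at least 2 in both WT/HAQ and WT/-, with the smaller of those ratios on the x axis and the HAQ/- ratio on the y axis, both logarithmic. The 92 members (orange) lie between the dotted lines at 0.8 and 1.25, and the dashed line marks a ratio of 2.

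**Figure D2:**
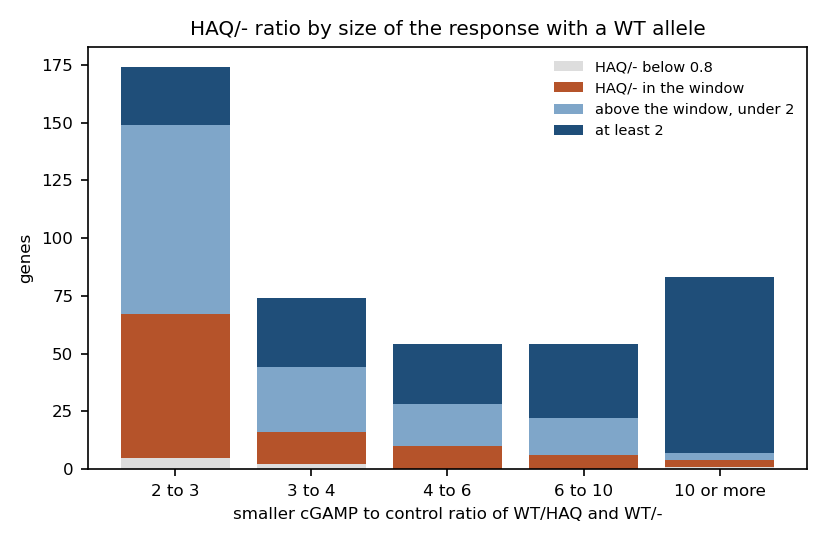
Bars count the 439 genes by the smaller of their WT/HAQ and WT/- ratios, coloured by where the HAQ/- ratio lay. Genes inside the HAQ/- window, which include the 3 left out by name, were 62 of 174 in the lowest band and 3 of 83 in the highest.

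The HAQ/- ratio was above 1 in 75 of the 92 members (81.5%), with a median of 1.12, a description of values that the rule used. Over all 12085 tested genes it was above 1 in 44.5% (median 0.983). Among the 9905 genes inside the HAQ/- window it was above 1 in 44.8% (median 0.987). The counting interval of the HAQ/- ratio included 1 for 66 members, lay above 1 for 24 and below 1 for 2. It ended under 2 for 87 members, and for 86 it ended below the intervals of both other lines. The rule itself set these ratios apart, so these counts reflect selection and depth and are no support for a difference between lines. Intervals were counted for members alone. In WT/HAQ the members' ratios ran from 2.02 to 35.1 with a median of 3.07, and in WT/- from 2.01 to 38.2 with a median of 2.93. For 56 members the larger ratio was in WT/HAQ.

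The control levels of the members were alike in the 3 lines by their medians, but single members differed. Controls at least 2-fold apart were more common among members than among all tested genes: 9.78% against 3.04% for HAQ/- and WT/HAQ, 13.0% against 8.03% for HAQ/- and WT/-, and 13.0% against 5.61% for WT/- and WT/HAQ. Among genes raised in all 3 lines these shares were higher still, at 14.3%, 27.5% and 24.3%, so unequal controls are not particular to the members. The median log2 ratio of the HAQ/- to the WT/HAQ control was 0.08 over members and 0.05 over all 12085 genes, and against the WT/- control it was 0.11 in both sets. The HAQ/- control lay below both other controls for 23 members, above both for 37 and between them for 32. After cGAMP the median log2 ratio of HAQ/- to WT/HAQ was -1.45 over members, -1.22 over genes raised in all 3 lines and 0.08 over all genes. The cGAMP libraries selected the members, so their value and the shares of counts that follow describe the selection and are not results. Together the members took 0.312% of counts in the WT/HAQ control and 0.980% after cGAMP, 0.325% and 0.953% in WT/-, and 0.306% and 0.340% in HAQ/-.

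**Figure D3:**
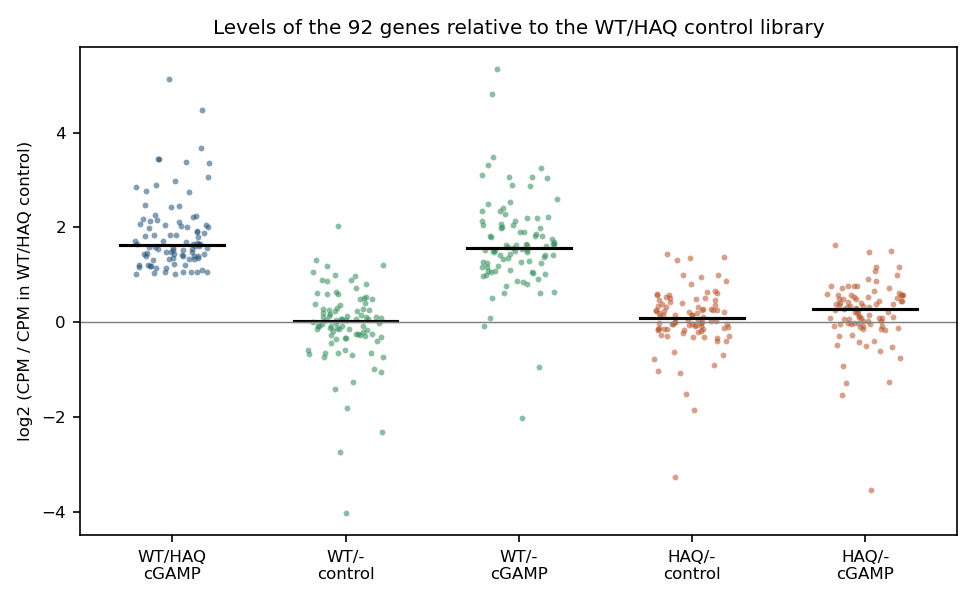
Points are the 92 members, shown as the log2 ratio of their CPM in each library to their CPM in the WT/HAQ control library, and black lines are medians. The medians of both cGAMP libraries with a WT allele lie above the points' bulk in the other libraries, which include single members far from 0 in the WT/- and HAQ/- controls.

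The position of the HAQ/- level was set against the other lines by the mean CPM of its pair of libraries. It lay at or below the higher control of the lines with a WT allele for 48 members and between that control and their lower cGAMP level for 39. For 5 members it was at or above the lower cGAMP level: ARHGEF26, EFHD1, PITPNC1, ABCG1 and DCHS1, named here after their values were seen. These are members with unequal controls. ABCG1, a cholesterol exporter, was at 11.5 and 31.9 CPM in WT/HAQ, 0.703 and 2.81 CPM in WT/-, and 6.64 and 6.06 CPM in HAQ/-. DCHS1, a large protocadherin, was at 16.8 and 34.2 CPM in WT/HAQ, 2.52 and 8.68 CPM in WT/-, and 21.5 and 24.8 CPM in HAQ/-. For both genes the WT/- clone stood far below the other lines before treatment, so a level above its cGAMP library says little about the response.

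Members were counted in lists of genes by function, to be read against the 0.761% of all tested genes that are members. At that share each list with 0 members, here and in the next paragraph, would hold less than 1, so a count of 0 does not set a list apart. None of the 37 tested genes of the interferon-stimulated gene (ISG) signature was a member, and 30 of them were among the 189 genes raised in all 3 lines, which the HAQ/- window keeps out of the set. There were 0 members and 14 genes raised in all 3 lines among 16 tested IRF3-linked early interferon genes, and 0 and 12 among 23 antiviral sensors and adaptors. Of 226 tested genes of the pattern-recognition receptor (PRR) pathway list, 3 were members (PIK3R1, KSR1 and RIPK2) and 27 were raised in all 3 lines. Cytokine and death receptors gave 2 members of 22 tested, IL7R and FAS, and the list of antigen presentation gave 2 of 17, CIITA and TAPBPL. With TMM or DESeq2 factors in place of column sums IL7R and TAPBPL left the set, and each list gave 1. The p53 and DNA-damage list gave FAS, 1 of 20.

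Neither NF-kB targets (0 of 19 tested) nor immediate-early genes (0 of 25) held a member. For WT/HAQ, WT/- and HAQ/- the median log2 ratio of the NF-kB targets was -1.05, -0.52 and -0.45, beside -0.05, -0.07 and -0.02 over all tested genes. Lists of cytokines, chemokines and growth factors (32 tested, with some names left out by the rule), JAK-STAT feedback (21), unfolded protein and integrated stress response (18), heat shock and oxidative stress (17), Notch, WNT, hedgehog and TGF-beta targets (16) and calcium and cAMP responsive genes (13) each had 0 members. Solute carriers gave 3 of 190, small GTPase regulators 2 of 57, histone genes 2 of 9 and zinc finger genes 1 of 437. HOXB3 was the 1 member among 71 homeobox, SOX, FOX, GATA and KLF factors, and AC006978.6 and THAP9-AS1 were 2 of 452 with uncharacterised, antisense or long non-coding names. In all, 74 of the 92 members were in none of the lists.

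Promoter sequence was not used by the selection. RefSeq promoters (GRCh38.p14, 250 bases before to 50 after a start) were matched for 68 members with 119 windows, beside 138 genes raised in all 3 lines with 194 windows and 9577 tested genes with 14048. No entry was matched for 24 members, among them SMOX, RIPK2, CRISPLD1, CIITA, PPA1, LRRC75A and GOLGA2P10. The interferon-stimulated response element (ISRE), searched as GAAANNGAAA on both strands, was in 3 of the 119 members' windows (2.52%, interval 0.523 to 7.19%) which belong to GCA and SRPK2. It was in 58 of the 194 windows of genes raised in all 3 lines (29.9%, 23.5 to 36.9%) and in 2.89% of all windows. These intervals treat windows as independent, but a gene can have several windows that overlap. Counted by gene, the ISRE was in 2 of 68 members (2.94%), 52 of 138 genes raised in all 3 lines (37.7%) and 3.96% of all tested genes. The sets also differ in response size, with a median WT/HAQ ratio of 3.07 over members and 10.6 over genes raised in all 3 lines. The part of response size in the motif shares was not tested. The 147 genes with a HAQ/- ratio between the window and 2 were not searched as a set.

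GCA, which encodes the calcium-binding protein grancalcin, was the member with both an ISRE and an NF-kB motif, GGGANNTTCC (kB), and was named for that. It was at 10.3 and 32.3 CPM in WT/HAQ, 9.73 and 30.9 CPM in WT/-, and 6.697 and 7.23 CPM in HAQ/-. Its first listed window (chr2:162318513-162318812, plus strand) is printed beside that of IFIT1 (chr10:89392373-89392672, plus strand), the gene of the other set described above, to show the same letters in both sets. Capitals mark the motif letters on either strand, 1 ISRE and 1 kB in GCA and a pair of ISREs in IFIT1. A match is a stretch of letters and not evidence of binding.
GCA: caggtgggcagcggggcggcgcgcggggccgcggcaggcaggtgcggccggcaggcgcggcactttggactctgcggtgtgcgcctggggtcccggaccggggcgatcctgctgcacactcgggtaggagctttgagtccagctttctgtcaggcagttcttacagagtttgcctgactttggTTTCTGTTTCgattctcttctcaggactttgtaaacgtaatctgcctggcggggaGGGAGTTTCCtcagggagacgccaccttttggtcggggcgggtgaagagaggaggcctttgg
IFIT1: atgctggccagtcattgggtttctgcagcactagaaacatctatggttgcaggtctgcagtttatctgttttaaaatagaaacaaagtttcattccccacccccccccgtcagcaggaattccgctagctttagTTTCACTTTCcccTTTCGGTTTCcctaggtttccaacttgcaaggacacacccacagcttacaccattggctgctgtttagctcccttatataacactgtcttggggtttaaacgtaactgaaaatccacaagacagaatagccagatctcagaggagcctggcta

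The other motifs separated the sets less. The kB motif was in 1.68% of members' windows, all of them windows of GCA, 5.15% of those of genes raised in all 3 lines and 1.59% of all windows. The shorter letters GGGNNTTCC share its ends at another spacing and are not a looser match of the kB motif. They were in 10.9% (5.95 to 17.96%) of members' windows, 4.12% of windows of genes raised in all 3 lines and 7.97% of all windows. The AP-1 motif TGANTCA was in 7.56% of members' windows, 7.73% of those raised in all 3 lines and 5.08% of all. Counted by gene, it was in 13.2% of members, 10.9% of genes raised in all 3 lines and 6.81% of all. In windows from 100 bases before the start, AP-1 was in 2.52%, 5.15% and 2.74% of windows in the same order. There GGGNNTTCC was in 4.20%, 1.55% and 3.85%. The cyclic AMP response element (CRE), searched as TGANNTCA in the longer windows, was in 10.9%, 9.79% and 8.26%. The STAT motif TTCNNNGAA (GAS) was in 5.88% of members' windows, 14.9% of those raised in all 3 lines and 6.24% of all. For the TATA box letters TATAAA the shares were 3.36%, 14.4% and 5.90%. The members' windows also matched all windows in base composition, with a median GC content of 64.0% against 65.0%, while those of genes raised in all 3 lines had 59.3%.

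**Figure D4:**
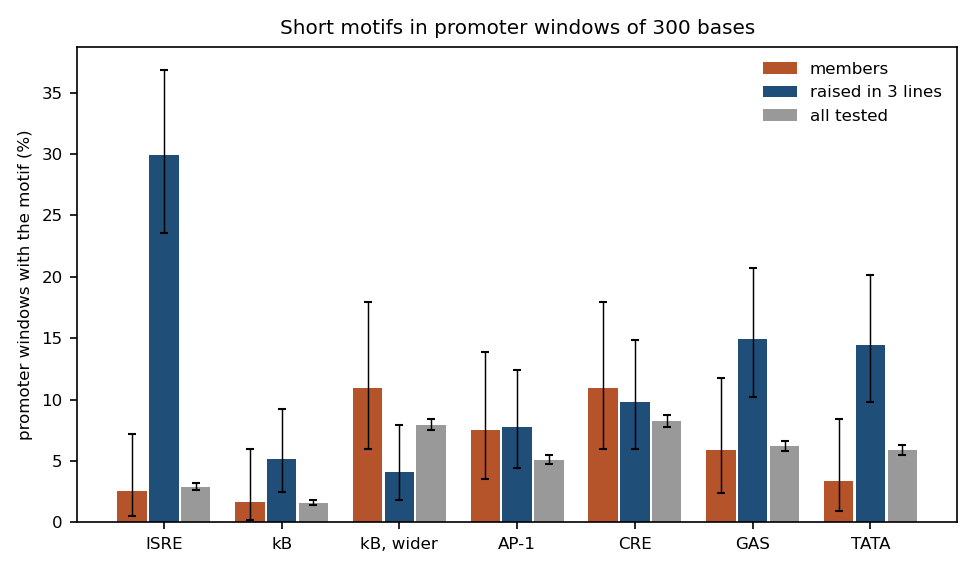
Bars give the percentage of 300-base promoter windows that hold each motif on either strand. They are shown for the members (119 windows), the genes raised in all 3 lines (194) and all tested genes (14048). Exact 95% intervals treat windows as independent. The bars labelled as a wider kB are for GGGNNTTCC, which is shorter than the kB motif. The ISRE bar stands at 29.9% for genes raised in all 3 lines and at 2.52% for the members.

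The groups by role below were assigned by hand to members alone. Their sizes have no share over all tested genes beside them and are not a result. Receptors and secreted factors made up 10 members and held several of the larger ratios. FAS (ENSG00000026103, chr10:88953813-89029605, plus strand) encodes the death receptor that starts apoptosis when its ligand binds. It was at 13.5 CPM in the WT/HAQ control and 72.6 CPM after cGAMP, 11.1 and 78.2 CPM in WT/-, and 12.7 and 15.4 CPM in HAQ/-. The HAQ/- ratio of 1.21 (1.0002 to 1.48) was near the upper end of the window, and its interval began at the point of no change.

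LYPD1, a GPI-anchored protein of the Ly6 family that binds nicotinic acetylcholine receptors, was at 6.19 and 44.5 CPM in WT/HAQ, 6.11 and 45.9 CPM in WT/-, and 3.801 and 4.41 CPM in HAQ/-. Of its exon bases, 29.7% lie within exons of the neighbouring receptor gene GPR39, so part of its count cannot be told apart from that gene. The first listed windows of FAS (chr10:88990548-88990847, plus strand) and LYPD1 (chr2:132671477-132671776, minus strand) are shown because both hold AP-1 letters. In FAS the capitals mark TGAATCA and a match of GGGNNTTCC, and in LYPD1 they mark a pair of adjoining AP-1 matches and a GAS.
FAS: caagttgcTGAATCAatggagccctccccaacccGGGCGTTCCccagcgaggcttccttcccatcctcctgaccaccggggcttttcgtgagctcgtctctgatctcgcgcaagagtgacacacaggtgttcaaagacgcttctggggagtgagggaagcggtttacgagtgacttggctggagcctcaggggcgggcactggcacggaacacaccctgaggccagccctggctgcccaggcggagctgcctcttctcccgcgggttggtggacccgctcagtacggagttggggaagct
LYPD1: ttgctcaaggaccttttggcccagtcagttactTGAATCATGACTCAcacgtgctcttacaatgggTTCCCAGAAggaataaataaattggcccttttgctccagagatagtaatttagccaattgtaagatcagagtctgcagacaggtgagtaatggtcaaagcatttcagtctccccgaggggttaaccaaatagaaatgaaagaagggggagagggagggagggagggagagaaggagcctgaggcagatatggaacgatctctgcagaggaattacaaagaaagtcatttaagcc

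FST encodes follistatin, a secreted protein that binds activins. It was at 2.896 and 64.9 CPM in WT/HAQ, 3.17 and 25.1 CPM in WT/-, and 3.88 and 4.31 CPM in HAQ/-, with ratios of 22.4 (16.9 to 30.3), 7.92 (5.92 to 10.8) and 1.11 (0.769 to 1.604). The counting intervals of WT/HAQ and WT/- do not overlap. ACVR1, a type I receptor for BMPs and activins, was named after its values were seen because follistatin acts on the same ligands. It was at 29.1 and 137 CPM in WT/HAQ, 26.7 and 121 CPM in WT/-, and 32.3 and 38.1 CPM in HAQ/-.

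IL7R, the alpha chain of the interleukin-7 receptor, is the member whose HAQ/- ratio is least certain. Its counts in HAQ/- were 3 in the control and 2 after cGAMP, so its HAQ/- interval ran from 0.0693 to 7.24 and a response there cannot be judged at this depth. In the other lines it was at 1.704 and 9.27 CPM in WT/HAQ and 6.98 and 68.9 CPM in WT/-. It was the single member with a count under 3 in any library. Its window (chr5:35856641-35856940, plus strand) is printed as 1 of 4 members' windows with a TATA match, in capitals on both strands.
IL7R: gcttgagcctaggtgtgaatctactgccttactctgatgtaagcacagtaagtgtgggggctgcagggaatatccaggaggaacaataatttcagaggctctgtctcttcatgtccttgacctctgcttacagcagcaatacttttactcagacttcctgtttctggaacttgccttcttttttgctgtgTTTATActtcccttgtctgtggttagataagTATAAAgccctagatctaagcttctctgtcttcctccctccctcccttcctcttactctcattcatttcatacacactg

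ADAMTS14, a secreted metalloproteinase that trims procollagen, was at 4.66 and 39.1 CPM in WT/HAQ, 0.938 and 9.56 CPM in WT/-, and 1.29 and 1.61 CPM in HAQ/-. Its HAQ/- control was near that of WT/- and below that of WT/HAQ, and it left the set when TMM or DESeq2 factors replaced the column sums. CRISPLD1, a secreted protein with a cysteine-rich CAP domain, was at 7.099 and 48.4 CPM in WT/HAQ, 13.9 and 78.9 CPM in WT/-, and 18.2 and 21.8 CPM in HAQ/-. Here the HAQ/- control was above both others and its cGAMP level stayed under both other cGAMP levels.

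Genes of cell death gave RIPK2 and HRK. RIPK2, the kinase that carries signals from the NOD receptors of bacterial cell wall fragments, was at 95.6 and 196 CPM in WT/HAQ, 198 and 439.7 CPM in WT/-, and 72.4 and 72.8 CPM in HAQ/-. Its control was highest in WT/-, above the cGAMP library of WT/HAQ. HRK, a BH3-only activator of apoptosis named after its values were seen, was the rarer, at 1.36 and 3.11 CPM in WT/HAQ, 3.11 and 13.02 CPM in WT/-, and 1.64 and 1.8997 CPM in HAQ/-. The HAQ/- interval included 1 for HRK.

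Among genes that act on RNA, DDX3X and DICER1 were the most abundant. DDX3X (ENSG00000215301, chrX:41333348-41364472, plus strand) encodes a DEAD-box RNA helicase that also works as an adaptor in the activation of IRF3 by TBK1. It was at 648 CPM in the WT/HAQ control and 1808 CPM after cGAMP, 678 and 1815 CPM in WT/-, and 538 and 641 CPM in HAQ/-. At this depth its HAQ/- ratio of 1.19 (1.16 to 1.23) was above 1 by more than counting error. Per kilobase of exon it was also the most abundant member in the WT/HAQ cGAMP library, at 114 CPM per kb, and RIPK2 followed at 64.1 CPM per kb. The second listed window of DDX3X (chrX:41333912-41334211, plus strand) carries a match of GGGNNTTCC, in capitals on the reverse strand.
DDX3X: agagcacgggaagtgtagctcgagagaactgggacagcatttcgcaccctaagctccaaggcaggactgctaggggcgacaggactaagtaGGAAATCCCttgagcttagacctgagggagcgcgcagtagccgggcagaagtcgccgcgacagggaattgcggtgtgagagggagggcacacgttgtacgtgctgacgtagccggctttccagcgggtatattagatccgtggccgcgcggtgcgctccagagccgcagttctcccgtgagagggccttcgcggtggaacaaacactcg

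DICER1 (ENSG00000100697, chr14:95086228-95158010, minus strand), the nuclease that cuts microRNA precursors, was at 96.3 and 360.2 CPM in WT/HAQ, 99.6 and 341 CPM in WT/-, and 97.05 and 98.1 CPM in HAQ/-. The 3 controls and the HAQ/- cGAMP library lay close together, and the HAQ/- ratio of 1.01 had an interval of 0.939 to 1.09. SRPK2, a kinase of splicing factors and the other gene with an ISRE match, was at 52.4 and 189 CPM in WT/HAQ, 61.3 and 133 CPM in WT/-, and 62.97 and 68.7 CPM in HAQ/-.

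Regulators of transcription and chromatin made up 10 members, of which RCOR1, ETV3 and JMY were the most abundant. RCOR1 (ENSG00000089902, chr14:102592649-102730561, plus strand) encodes the corepressor CoREST, a scaffold for histone demethylase and deacetylase. It was at 165 and 381 CPM in WT/HAQ, 130.5 and 281 CPM in WT/-, and 149.7 and 147 CPM in HAQ/-. ETV3, an ETS-family repressor, was at 64.6 and 205 CPM in WT/HAQ, 85.5 and 315 CPM in WT/-, and 58.2 and 69.1 CPM in HAQ/-. Their HAQ/- ratios were 0.979 (0.923 to 1.04) and 1.19 (1.09 to 1.301), both inside the window by selection.

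JMY, a cofactor of p53 that also nucleates actin, was at 107 and 245 CPM in WT/HAQ, 89.4 and 275 CPM in WT/-, and 90.2 and 74.5 CPM in HAQ/-. Its HAQ/- ratio of 0.826 (0.763 to 0.895) lay below 1. ZBED5, a protein derived from a DNA transposon, was the other such member, at 36.3 and 29.4 CPM in HAQ/-. LIN54, a DNA-binding subunit of the DREAM complex that represses cell cycle genes, was named after its values were seen. It was at 21.4 and 99.2 CPM in WT/HAQ, 16.8 and 119.6 CPM in WT/-, and 20.6 and 20.9 CPM in HAQ/-. Its neighbour THAP9-AS1, a non-coding RNA whose gene ends 9013 bases away, is a member too, and shares 15.5% of its exon bases with SEC31A and THAP9.

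CDKN2C, which encodes the cell cycle inhibitor p18 of the CDK4 and CDK6 kinases, led the 6 genes of cell cycle and DNA repair. It was at 16.8 and 184 CPM in WT/HAQ, 19.9 and 141 CPM in WT/-, and 23.9 and 28.3 CPM in HAQ/-. The HAQ/- control was above both other controls, and its ratio of 1.19 (1.03 to 1.37) left room for a small response. The rest of that group, KIF20B, SASS6, E2F8, RMI1 and XPA, had ratios from 2.06 to 4.45 in the lines with a WT allele. For 5 of the 6 genes the HAQ/- level lay between the control and the cGAMP levels of the other lines.

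Kinases and signalling adaptors, a broad class, were the largest group assigned by hand, with 12 members and WT/HAQ ratios from 2.02 to 4.80. PIK3R1 (ENSG00000145675, chr5:68215740-68301821, plus strand), the regulatory subunit of PI3-kinase, was at 96.1 and 303 CPM in WT/HAQ, 105 and 271 CPM in WT/-, and 90.996 and 98.1 CPM in HAQ/-. HIPK3, a nuclear kinase, was at 170.0 and 399 CPM in WT/HAQ, 161 and 410.3 CPM in WT/-, and 158 and 169 CPM in HAQ/-. Both had nearly equal controls in the 3 lines, and both HAQ/- intervals, 1.001 to 1.16 and 1.01 to 1.13, began just above 1. KSR1, a scaffold of the RAF-MEK-ERK cascade, was at 12.7 and 56.9 CPM in WT/HAQ, 14.9 and 36.5 CPM in WT/-, and 12.1 and 13.3 CPM in HAQ/-. PHACTR4, which binds actin and protein phosphatase 1, was at 68.7 and 252 CPM in WT/HAQ, 83.2 and 256 CPM in WT/-, and 78.7 and 92.4 CPM in HAQ/-. KSR1 gave the lower value in WT/- of the pair of treated libraries, whereas those of PHACTR4 were almost equal.

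Genes of metabolism held the largest ratio of all members. ACER2 (ENSG00000177076, chr9:19409009-19452505, plus strand) encodes the Golgi alkaline ceramidase, which makes sphingosine from ceramide. It was at 0.795 CPM in the WT/HAQ control and 27.9 CPM after cGAMP, 0.586 and 22.4 CPM in WT/-, and 0.705 and 0.658 CPM in HAQ/-. All 4 libraries without a response were below 1 CPM. The counts in HAQ/- were 12 and 9, and the interval of that ratio ran from 0.347 to 2.41, far from the ratios of 35.1 and 38.2 in the other lines. Its window (chr9:19408759-19409058, plus strand) is printed as that of the member with the largest ratio, and holds none of the 7 motifs.
ACER2: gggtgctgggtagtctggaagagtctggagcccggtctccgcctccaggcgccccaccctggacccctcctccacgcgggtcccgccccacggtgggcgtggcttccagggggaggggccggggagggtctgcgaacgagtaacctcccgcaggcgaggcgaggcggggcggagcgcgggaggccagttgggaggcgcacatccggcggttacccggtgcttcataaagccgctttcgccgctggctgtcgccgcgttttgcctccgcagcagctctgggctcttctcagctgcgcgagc

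SMOX, spermine oxidase, was at 71.5 and 183 CPM in WT/HAQ, 99.8 and 205 CPM in WT/-, and 58.5 and 67.6 CPM in HAQ/-. PPA1, the cytosolic pyrophosphatase, was at 96.1 and 282 CPM in WT/HAQ, 72.97 and 266 CPM in WT/-, and 86.4 and 102 CPM in HAQ/-. Both had HAQ/- intervals above 1, 1.06 to 1.27 and 1.098 to 1.27. The 7 members of membrane transport, among them the phosphate exporter XPR1 and the acetyl-CoA transporter SLC33A1, had WT/HAQ ratios from 2.09 to 10.4, the highest in SLC8A2, a sodium-calcium exchanger.

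OTUD1, a deubiquitinase, stood out among the 4 genes of the ubiquitin system. It was at 11.02 and 119 CPM in WT/HAQ, 11.5 and 90.6 CPM in WT/-, and 8.87 and 10.2 CPM in HAQ/-. The others, the ubiquitin ligases MYCBP2, RNF24 and ZNRF2, had ratios of 2.17 to 4.05 in WT/HAQ and WT/-, and RNF24 shares 33.7% of its exon bases with PANK2. LRRC75A, whose role is not assigned here, was at 2.63 and 33.5 CPM in WT/HAQ, 2.78 and 26.1 CPM in WT/-, and 2.93 and 3.26 CPM in HAQ/-. It overlaps LRRC75A-AS1 over 13.4% of its exon bases, and whether the counting used strand is not given in the sources used here.

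Recognition by immune cells was served by 4 members. ULBP3, a ligand of the activating receptor NKG2D of natural killer and T cells, was at 4.54 and 30.4 CPM in WT/HAQ, 4.103 and 23.1 CPM in WT/-, and 6.34 and 6.79 CPM in HAQ/-. CIITA, the master activator of MHC class II genes, a threshold case and 1 of the antigen presentation list, was at 1.11 and 11.5 CPM in WT/HAQ, 1.704 and 5.92 CPM in WT/-, and 3.03 and 2.495 CPM in HAQ/-. Its HAQ/- control was the highest of the 3 and its HAQ/- interval was wide, at 0.512 to 1.28. BTN3A1, which presents phosphoantigens to gamma-delta T cells, and TAPBPL, a peptide editor of MHC class I, had WT/HAQ ratios of 2.77 and 2.96.

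Some members are uncertain as single genes. Values that are not whole, a sign that reads were shared among several places, occurred in 24 of the 92. HIST2H4A and HIST2H4B encode the same histone H4 from neighbouring copies and cannot be told apart. GOLGA2P10, a pseudogene with 1 of the 12 largest ratios, was at 6.33 and 47.1 CPM in WT/HAQ, 7.77 and 46.5 CPM in WT/-, and 7.53 and 7.28 CPM in HAQ/-. Its reads may belong to other golgin copies, as may those of GOLGA6L5P, and CSPG4P12 has the same limit. Exons of 16 members overlap those of another tested gene, by over 20% of their bases in LYPD1, RNF24 and HSCB.

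**Figure D5:**
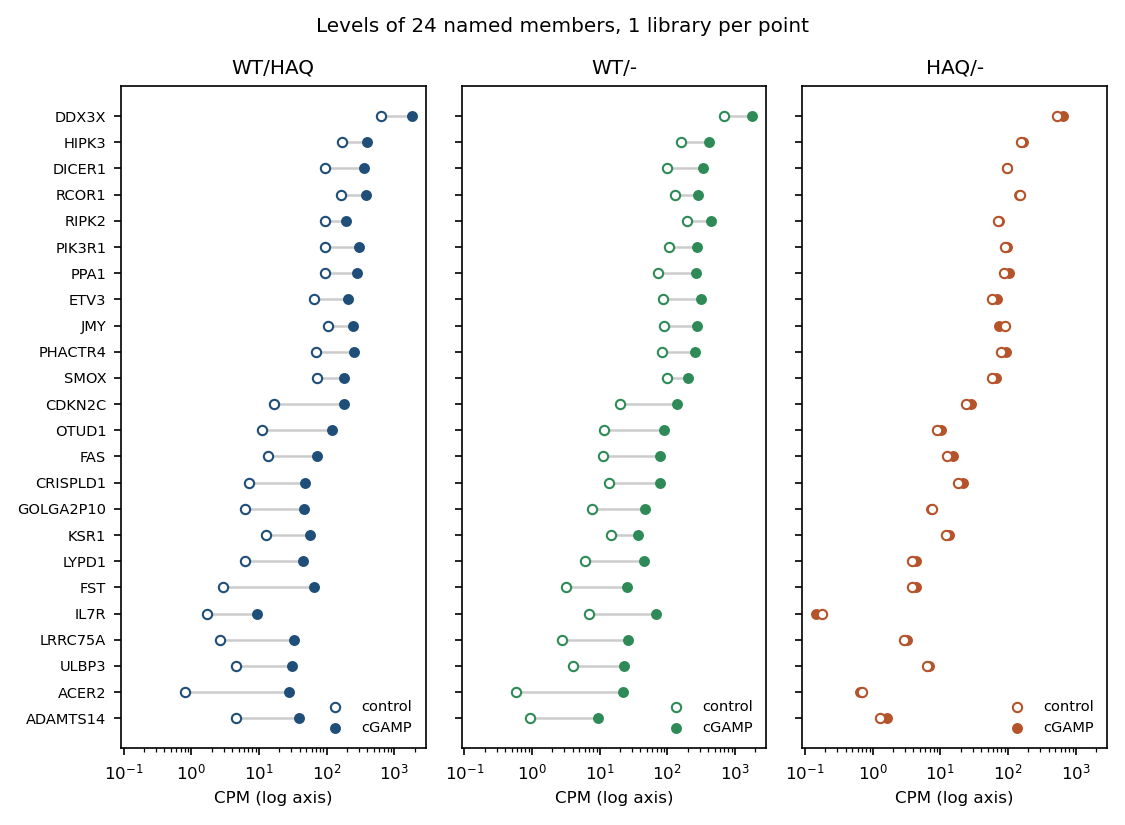
CPM of 24 members named by rule, on logarithmic axes, with open circles for control and filled circles for cGAMP libraries and 1 panel for each genotype. The circles of each gene lie apart in WT/HAQ and WT/- and almost touch in HAQ/-, as the selection requires, and DDX3X is the highest in CPM.

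The members' genes were longer at the median than those of either comparison set. By GENCODE (release 44, GRCh38), 87 of the 92 are protein-coding, with a median gene length of 44621 bases against 33360 over all tested genes and 27001 over genes raised in all 3 lines. Median 3' UTR lengths were 1677, 1415 and 1215 bases in the same order. The AU-rich letters TATTTAT were in the 3' UTR of 43 of 87 members that have one (49.4%), 37.6% of all tested genes and 39.2% of those raised in all 3 lines. Longer UTRs hold such letters more often, and the part of length in that difference was not tested. The shorter letters ATTTA, counted per kilobase, had medians of 2.23 in members, 1.79 in all tested genes and 1.79 in genes raised in all 3 lines. The members lay on 23 chromosomes, with 7 pairs closer than 500000 bases.

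The thresholds divided genes with nearly equal values. At the upper end of the HAQ/- window the nearest members were PXK (HAQ/- ratio 1.25) and ZNRF2 (1.25), then ADAMTS14, IL7R and TAPBPL, tied at 1.24. For IL7R that value comes from setting its HAQ/- cGAMP count of 2 to 3. The nearest genes outside were RAP2B (1.25, just over the limit), SNPH (1.26) and ARHGAP26 (1.27). At the lower end ZBED5 (0.811), CIITA (0.823) and JMY (0.826) lay inside and ZNF14 (0.787), EXPH5 (0.785) and PLA2G4C (0.663) outside. The first gene outside the upper end differed from the last inside by less than their counting error, and genes on either side should be read as alike. For the WT/HAQ ratio AKAP7 (2.02), DCHS1 (2.03) and RIPK2 (2.05) lay inside and CENPU (1.98), SALL1 (1.97) and MREG (1.96) outside. For the WT/- ratio P2RY1 (2.01), CA11 (2.02) and CTIF (2.02) lay inside and KIAA2018 (1.99), IKZF2 (1.94) and PDK3 (1.93) outside. At the minimum mean count AC006978.6 (50.7), EFHD1 (51.2) and GPR135 (55.8) lay inside and OPRK1 (47.3), MKX (46.2) and FAM71F2 (45.8) outside.

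The rule was also applied with the lines exchanged. With WT/- as the flat line, 1 of the 195 genes with a ratio of at least 2 in both WT/HAQ and HAQ/- passed. This was FKBP5, a glucocorticoid-responsive chaperone, at 7.16 and 14.4 CPM in WT/HAQ, 11.4 and 9.96 CPM in WT/-, and 2.06 and 10.7 CPM in HAQ/-. With WT/HAQ as the flat line, 0 of 192 passed. In both of these pools 189 genes were raised in all 3 lines and could not pass, so few were left that could. The 92 members come from a pool of 439, of which the same 189 could not pass, and the counts are not comparable.

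The libraries looked like those of 1 epithelial cancer line. The 11 ovarian epithelial cancer markers summed to 7273 and 5869 CPM in WT/HAQ, 5549 and 4387 CPM in WT/-, and 6202 and 5853 CPM in HAQ/-, most of it ERBB2. The 15 immune cell markers summed to 28.4 and 44.9 CPM in WT/HAQ, 26.8 and 38.0 CPM in WT/-, and 31.9 and 38.1 CPM in HAQ/-, nearly all of it CD68, with CD3D, MS4A1, NKG7 and FCGR3A at 0 in every library. The 10 fibroblast markers reached at most 153 CPM, led by COL1A1, and the 7 endothelial markers at most 6.75 CPM, led by KDR.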

How the data were processed

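The authors sequenced mRNA of 6 libraries as paired reads and deposited 1 table of expected counts per Ensembl gene, estimated counts that need not be whole. STAR, RSEM and the build GRCh38 (hg38) are named in the submitters' processing notes, with no role or version. The annotation and the use of strand are not given in the sources used here. From these counts CPM was computed with the column sum, and ratios with counts under 3 set to 3. No test was run, since each condition had 1 library. Members and gene lists were chosen with earlier results of these data known. Roles were assigned by hand, to members alone, after the values were seen. The ISG signature and PRR pathway lists follow the study's own definitions, and the other lists are textbook genes or symbol patterns.

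Members named by rule were the 12 with the highest mean CPM over both cGAMP libraries with a WT allele, the 12 with the largest smaller ratio, and those in the response lists, 25 in all, of which 1 is not reported here; the 3 nearest genes on each side of a threshold were added, and other names were chosen after their values were seen. Gene models came from GENCODE release 44 and promoters from RefSeq (GRCh38.p14). Python 3.11.15, pandas 2.3.3 and scipy 1.17.1 were used, with edgeR 4.0.16 and DESeq2 1.42.0 (R 4.3.3) for alternative scaling of rounded counts. The selection was run on simulated counts that held counting error only, which checks its calculation and not its behaviour between single cultures or clones. Alternatives changed the scaling, depth, thresholds, floor, rounding and promoter window.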

Additional observations from a re-analysis of the deposited data

Results flagged for a closer look

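JMY and ZBED5 had HAQ/- counting intervals below 1, unlike the other members. JMY had cGAMP to control ratios of 2.298 in WT/HAQ and 3.07 in WT/-, and of 0.826 (0.763 to 0.895) in HAQ/-. ZBED5 had ratios of 3.78 and 4.33, and of 0.811 (0.714 to 0.921) in HAQ/-. The intervals of the lines with a WT allele lay above 1. Over all 12085 tested genes the HAQ/- ratio had a lower quartile of 0.895 and a median of 0.983, so a ratio below 1 is common there. The difference between the lines was not tested, since each condition had 1 library, and both genes were selected on these values.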

How the results depend on the processing

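No condition had a replicate, so the values have no replicate error, and a ratio is limited by depth and by the differences between single cultures. The libraries form 1 pair of control and cGAMP in each line, and no test over these pairs was run. The number of members was 91 with TMM factors and 92 with DESeq2 size factors in place of column sums, and 87 of the 92 were shared in both cases. It was 86 with 77 shared after thinning to the smallest library, 92 after rounding, 125 and 79 with a minimum mean count of 20 and 100, and 96 with counts under 10 set to 10. Other ratio thresholds gave 255 genes at a ratio of at least 1.5, 31 at a ratio of at least 3 (all 31 among the members), 36 with the HAQ/- ratio between 0.9 and its inverse (all 36 among the members), and 140 between 0.7 and its inverse.

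Alternatives chosen after seeing the data gave 259 genes with no minimum mean count, 68 members without genes that have values that are not whole, 89 without genes that overlap another over more than 20% of their exon bases, and 87 whose HAQ/- interval ended under 2. With WT/- as the flat line, 1 gene passed in 7 of the other settings of the rule, but 8 with a minimum mean count of 20, 12 at a ratio of at least 1.5, 29 with no minimum mean count, and 0 at a ratio of at least 3 and with the window from 0.9. With WT/HAQ as the flat line, 10 passed at a ratio of at least 1.5 and 26 with no minimum mean count. Under both scalings ADAMTS14, IL7R, PXK, TAPBPL and ZNRF2 left the set. The receptor list and the antigen presentation list then gave 1 member each, and with DESeq2 size factors the zinc finger list gave 2. The HAQ/- level was at or below the higher control for 52 and 53 members under TMM and DESeq2 scaling. Of 144 other values of named genes' ratios, 3 left their counting interval, all in DDX3X. With promoter windows from 100 bases before the start, GGGNNTTCC was in 4.20% of members' windows and 3.85% of all, the AP-1 motif in 2.52% and 2.74%, GAS in 2.52% and 2.67%, and the ISRE in 0.840% and 1.42%. CRE was in 8.40% and 5.04%. In windows of genes raised in all 3 lines the shares were 21.1% for the ISRE, 1.55% for GGGNNTTCC, 5.15% for AP-1, 8.25% for GAS, 4.64% for CRE and 6.70% for TATAAA. The kB motif was in 1.68% of members' windows, 3.61% of those raised in all 3 lines and 0.847% of all, and TATAAA was in 2.52% of members' windows and 2.80% of all. The cause of these shifts was not tested.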

Other observations

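The mirror image of the rule was also counted, after the data had been seen. Of 215 genes with a cGAMP to control ratio of at most 0.5 in both WT/HAQ and WT/-, 45 had a HAQ/- ratio inside the window of 0.8 to 1.25 (20.9%), where 82.0% of all tested genes lay. The genes described from this set were picked after their values were seen, and it was not counted against any list. INHBA, which encodes an activin subunit, was at 251 CPM in the WT/HAQ control and 55.7 CPM after cGAMP, 380.1 and 86.8 CPM in WT/-, and 125 and 134 CPM in HAQ/-. SMAD3, a transcription factor, was at 237 and 53.3 CPM in WT/HAQ, 329.5 and 140.2 CPM in WT/-, and 164 and 138 CPM in HAQ/-. For INHBA and SMAD3 the HAQ/- control was below both other controls. After cGAMP the HAQ/- level of INHBA was above both other lines, and that of SMAD3 was above WT/HAQ and close to WT/-. The lines thus differed in the other direction before treatment.

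The NF-kB cofactor BCL3 was in the same set, at 77.5 and 37.3 CPM in WT/HAQ, 215 and 102 CPM in WT/-, and 32.7 and 30.3 CPM in HAQ/-. Its HAQ/- libraries were both below the treated libraries of the other lines.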
